A study of Mus musculus with 20 samples.

Results

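The subject is the resting state of macrophages that lack both MyD88 and TRIF, set against wild-type (WT) macrophages, in cells given no LPS. It covers 10 of the 20 arrays of the series: the 5 double-KO arrays and the 5 WT arrays, 1 per genotype at 1, 2, 4, 8 and 16 h, chosen by their genotype and treatment labels. Only the untreated channel of each array was used, which was Cy3 on all 10. The other channel held LPS-treated cells of the same genotype and hour. It entered the normalization, the masking of outlier spots, the probe filter and the choice of 1 probe per gene, and no level. The double-KO cells carry both knockouts, and the WT cells carry neither. All mice are labelled C57BL/6 and matched for age and gender, with no age given. Bone marrow cells were grown for 6 days with conditioned medium of an M-CSF-secreting L929 line, replated, washed, and kept in serum-free medium without LPS for the stated hours. Such cells are primary macrophages of a culture dish, and the labels do not say how many animals or cultures the arrays stand for. The p-values below therefore measure only a spread between arrays, which may be technical. That spread was estimated from 19 arrays of all 4 genotypes, not from these 10 alone. Each genotype had 1 array per hour, so no spread between replicates of the same hour was measured.

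MyD88 and TRIF (gene Ticam1) are the adapter proteins through which Toll-like receptors pass a signal on. MyD88 serves most of these receptors and the interleukin-1 receptor family and leads to NF-kB. TRIF serves Tlr3 and the internalised Tlr4 and leads to both NF-kB and interferon-beta. The untreated channel shows the resting state of cells with neither adapter, in which receptors, metabolism, proliferation and differentiation can be read beside the cytokines.

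Depth and labels were checked first. Between 57.7% and 65.8% of Cy3 spots were well above background on the double-KO arrays and between 60.2% and 69.6% on the WT arrays, and no Cy3 spot was saturated. All levels are normalized log2 Cy3 intensities, so a step of 1 is a doubling. Ticam1 stood at 7.23, 7.28, 7.29, 7.26 and 7.35 in double-KO cells, against 10.53, 10.48, 10.62, 10.68 and 10.95 in WT cells at 1, 2, 4, 8 and 16 h. The difference was -3.37 ± 0.10 (double-KO minus WT, SE, adjusted p = 5.3e-12). The cells labelled TRIF-KO averaged 10.81 for Ticam1, at the WT level, so their means are given below only under that label. Myd88 differed by -0.41 ± 0.15 (SE, adjusted p = 0.056), so its probe does not show the loss, and where the deletion lies relative to the probe was not analysed here. Tlr4, the LPS receptor, differed by -0.11 ± 0.12 (adjusted p = 0.56). The sex-linked genes separated the groups: Y-linked Ddx3y was at least 25-fold higher in double-KO cells, Y-linked Eif2s3y at least 175-fold and Y-linked Usp9y at least 6.21-fold, while the named probe of Xist, the RNA of the inactive X chromosome, was well above background on all 5 WT arrays and on no double-KO array (its other probe differed by -1.07 on the log2 scale). A bound sets the bright group's mean against the lowest signal well above background on the dim group's arrays, or the dim probe's own signal where that was higher. The animals of the groups thus differed in sex by these genes, and sex cannot be told apart from genotype in any difference below. All WT arrays were scanned on day 1 and all double-KO arrays on day 2, and they shared no slide, per the file headers, so scan day and slide cannot be told apart from genotype within these 10 arrays. A term for scan day can be fitted only through the MyD88-KO arrays, of which 1 was scanned on day 1 and 3 on day 2.

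Untreated double-KO and WT macrophages differed widely. Over all hours 5634 of 21962 genes passed (limma's moderated test with hour as a block, Benjamini-Hochberg adjusted p under 0.05; 25.7%), of which 3227 were higher in double-KO cells (14.7%) and 2407 lower (11.0%). The genes with more than 2-fold differences leaned the other way, with 256 higher and 449 lower. With the scanner software's processed signal scaled to the 75th percentile the split was 2187 higher and 3417 lower. Without the block for hour 1080 genes were higher and 1055 lower, and with a term for scan day 1063 were higher and 755 lower. The list counts given below for these 2 fits stand against these smaller totals, not against the 14.7% and 11.0%. A smaller list count there is thus not by itself a change in the list. Of the 161 genes described here that passed over all hours, 107 also passed without the block and 74 with the scan-day term. These arrays measure bulk RNA, so fewer cells of a type and less RNA per cell cannot be told apart.

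Outside the sex-linked genes and those given as bounds, the largest positive difference was that of Ctse, which encodes cathepsin E, an aspartic protease of endosomes. Ctse (mm9, chromosome 1, 133571990 to 133572049) read 16.17, 16.04, 15.96, 15.80 and 15.15 in double-KO cells at the 5 hours, against 9.97, 10.99, 10.21, 9.97 and 9.83 in WT cells. The groups did not overlap, and the difference was 5.63 ± 0.15 (SE, adjusted p = 1.8e-12), or 49.5-fold. A term for scan day gave 5.83. Treml1, known from platelets as a receptor of the TREM family, read 14.43, 14.21, 14.62, 14.17 and 14.10 in double-KO and 11.16, 11.89, 11.75, 10.78 and 10.25 in WT cells (difference 3.14 ± 0.17). It lies 7.9 Mb from Ticam1 on chromosome 17. Within 10 Mb of Ticam1 52 of 186 genes passed (28%) and within 10 Mb of Myd88 45 of 174 (25.9%), close to the share over all genes.

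Vsig4, the complement receptor CRIg of resident macrophages, read 11.89, 11.75, 11.36, 10.74 and 10.01 in double-KO cells, against 8.97, 9.09, 9.01, 8.67 and 8.64 in WT cells (difference 2.28 ± 0.21). It was higher at every hour, and its level declined over the hours in double-KO cells. Dkk2, a secreted antagonist of Wnt signalling, read 10.70, 10.04, 11.44, 11.64 and 11.55 in double-KO and 8.10, 8.13, 8.98, 8.31 and 7.79 in WT cells (difference 2.81 ± 0.22). Cd24a, a glycosylated surface protein of immature blood cells, differed by 2.24 ± 0.23, Pam, which amidates peptide hormones, by 2.20 ± 0.22, and the membrane protein gene Tmem132a by 2.88 ± 0.34 (adjusted p = 3.1e-05). With the scan-day term Vsig4 and Dkk2 passed, and Tmem132a, Cd24a and Pam did not (adjusted p = 0.058, 0.066 and 0.11). Gm5067 (difference 3.62 ± 0.20) and Pakap (3.41 ± 0.28) were also among the 12 highest, and 1 of the 2 other probes of Pakap went the other way. The X-linked translation factor gene Eif2s3x differed by 2.48 ± 0.15, but it has a near-identical Y-linked copy and its other probe stood at -0.07, so its value is uncertain. Detected on all 5 double-KO and no WT array were Adgrg5, an adhesion receptor coupled to G proteins (at least 4.23-fold higher), and Syce1, known from meiotic chromosomes (at least 3.64-fold).

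**Figure D1:**
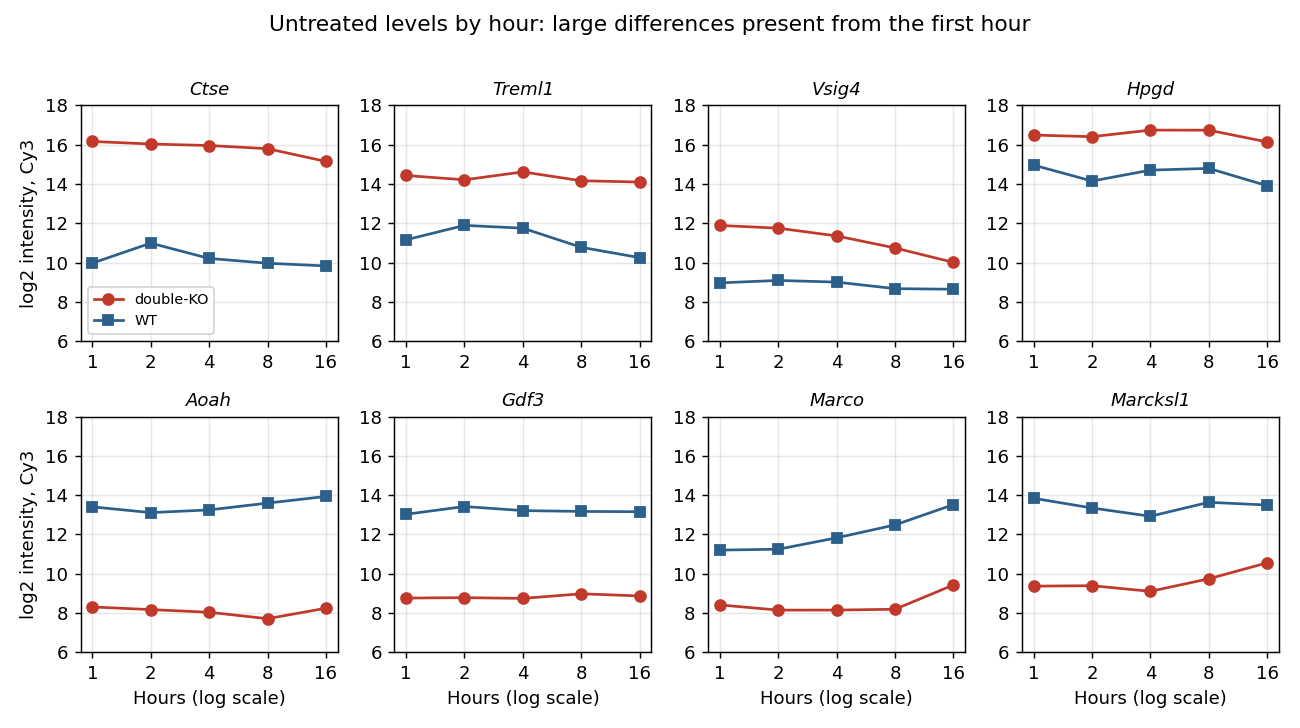
Untreated log2 Cy3 intensity (vertical axis) at each hour (horizontal axis, log scale) for 4 genes higher and 4 genes lower in double-KO cells, with 1 array per point. In each of the 8 panels the double-KO and WT lines stay apart at all 5 hours, from 16.17 against 9.97 for Ctse at 1 h to 10.55 against 13.50 for Marcksl1 at 16 h.

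The 12 genes lowest in double-KO cells, outside the inflammatory lists, held a lipase, an ankyrin repeat gene, acute phase genes and receptors. Ankrd29, an ankyrin repeat gene, read 7.91, 7.78, 7.74, 7.46 and 7.86 in double-KO cells, against 13.05, 13.29, 13.61, 13.51 and 13.07 in WT cells (difference -5.56 ± 0.14), and it averaged 7.22 in the cells labelled TRIF-KO and 7.43 in MyD88-KO cells. Aoah (mm9, chromosome 13, 21116062 to 21116121), the lipase that inactivates LPS by removing its acyl chains, read 8.31, 8.17, 8.04, 7.71 and 8.24 in double-KO cells, against 13.40, 13.11, 13.25, 13.60 and 13.93 in WT cells. The difference was -5.36 ± 0.16 (SE, adjusted p = 1.2e-11), and the single-knockout means were 13.23 in TRIF-KO-labelled and 12.13 in MyD88-KO cells. Gdf3, a growth factor of the TGF-beta family, read 8.76, 8.78, 8.74, 8.98 and 8.87 in double-KO and 13.03, 13.42, 13.21, 13.17 and 13.16 in WT cells (difference -4.37 ± 0.10). Marcksl1, an actin-binding substrate of protein kinase C, read 9.37, 9.39, 9.10, 9.74 and 10.55 in double-KO and 13.84, 13.35, 12.93, 13.64 and 13.50 in WT cells (difference -3.82 ± 0.25). Aoah, Gdf3, Ankrd29 and Marcksl1 passed with the scan-day term as well, with differences of -5.43, -3.97, -5.61 and -4.56.

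Npy, a neuropeptide precursor, was well above background on all 5 WT arrays and on no double-KO array, and was at least 31.5-fold lower in double-KO cells. Ppm1n, a protein phosphatase gene, was at least 5.54-fold lower, and Mmp14, which anchors collagenase activity at the cell surface, at least 3.9-fold. Acod1, which makes itaconate from a citric acid cycle intermediate, read 9.48, 9.43, 8.63, 9.26 and 10.06 in double-KO cells, against 15.01, 13.72, 13.995, 14.07 and 14.54 in WT cells (difference -4.90 ± 0.27). The acute phase genes Saa3 (-5.64 ± 0.44) and Saa1 (-4.22 ± 0.83, but -1.81 with the scan-day term, adjusted p = 0.57) and the GTPase gene Gm4951 (-4.40 ± 0.32) were also among the 12 lowest, with Ly6a, the surface antigen Sca-1 that interferon is known to raise, at 11.19, 10.72, 9.98, 9.63 and 10.22 in double-KO and 14.82, 14.15, 13.68, 14.07 and 15.36 in WT cells (difference -4.07 ± 0.30).

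Adgre1, Csf1r and Cd68, which mark macrophages, did not pass with hour as a block, while other identity genes passed in both directions. The pan-macrophage marker Adgre1 read 17.53, 17.52, 17.56, 17.46 and 17.51 in double-KO cells, against 17.45, 17.56, 17.34, 17.32 and 17.61 in WT cells, a difference of 0.06 ± 0.11 (adjusted p = 0.72). Csf1r, the M-CSF receptor, differed by -0.18 ± 0.12 (adjusted p = 0.28) and Cd68, an endosomal glycoprotein, by -0.16 ± 0.12 (adjusted p = 0.38). The scan-day term moved these values to -0.44 for Adgre1 (adjusted p = 0.19), -0.60 for Csf1r (adjusted p = 0.14) and -0.83 for Cd68 (adjusted p = 0.031), so Cd68 was called lower in that fit. All 3 were well above background on every array of both groups. Of 25 measured identity genes 4 were higher (16.0%, against 14.7% of all genes) and 7 lower (28.0%, against 11.0%), and the list's median was -0.14 (0.01 over all genes). Without the block none was higher and 2 were lower, and with the scan-day term none and 6. Marco, a scavenger receptor for bacteria, had the largest difference, at 8.41, 8.15, 8.15, 8.19 and 9.43 in double-KO cells and 11.20, 11.25, 11.83, 12.48 and 13.52 in WT cells (difference -3.59 ± 0.25). Fcgr1, the high-affinity receptor for IgG, was lower (difference -1.16 ± 0.16), as were the lipid sensor Nr1h3 (-0.66 ± 0.12) and Spi1, the transcription factor PU.1 (-0.62 ± 0.17). Fcgr1 passed without the block and not with the scan-day term (adjusted p = 0.14). Nr1h3 and Spi1 passed with the scan-day term and not without the block (adjusted p = 0.086 and 0.076). Itgam (CD11b) was higher by 0.52 ± 0.17, Mertk, a receptor for dying cells, by 0.28 ± 0.09 and the transcription factor gene Cebpa by 0.75 ± 0.22, and all 3 turned sign with the scan-day term.

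**Figure D2:**
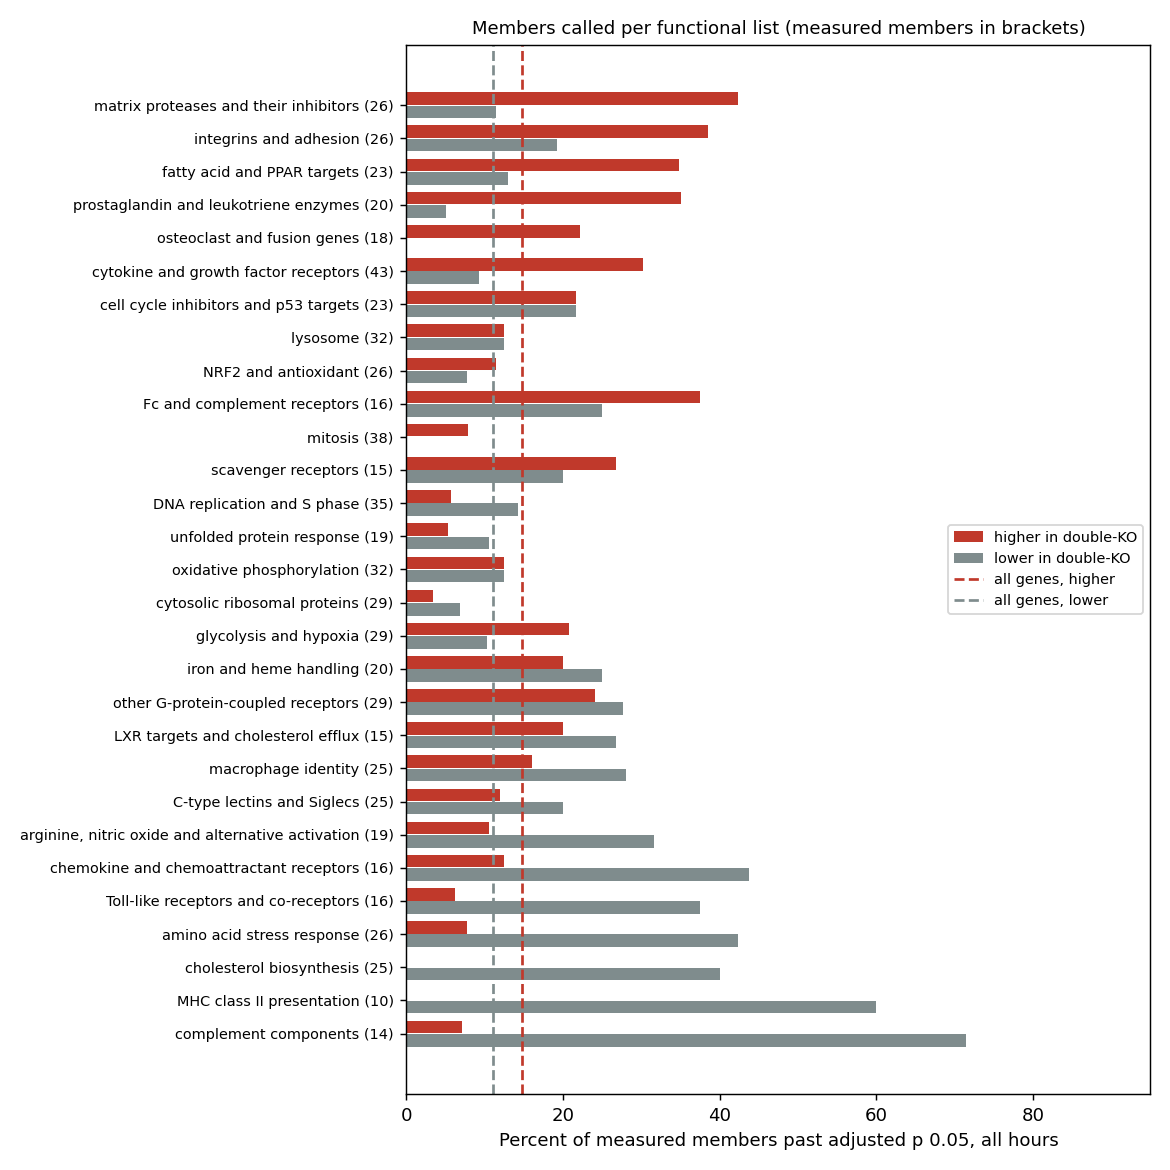
Percent of measured members of each functional list (rows, number measured in brackets) that passed adjusted p 0.05 over all hours, higher in double-KO (red) and lower in double-KO (grey), with dashed lines at the 14.7% and 11.0% of all genes. The lists are ordered by median difference, from matrix proteases, with 42.3% higher and 11.5% lower, down to complement components, with 71.4% lower and 7.1% higher.

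Of 16 measured receptors for chemoattractants, 7 were lower (43.8%, against 11.0% of all genes) and 2 higher (12.5%, against 14.7%; 3 and 1 without the block, 4 and 1 with the scan-day term). Fpr1, which binds formylated bacterial peptides, read 7.38, 7.25, 7.28, 7.60 and 7.69 in double-KO cells, against 10.95, 11.20, 11.64, 13.45 and 13.76 in WT cells. Its relative Fpr2 read 8.16, 8.06, 7.64, 8.25 and 9.39 in double-KO and 12.12, 11.997, 11.93, 13.002 and 13.66 in WT cells, and both were lower at every hour (differences -4.76 ± 0.43 and -4.24 ± 0.23). Ccrl2, which presents the chemoattractant chemerin, differed by -2.16 ± 0.27. Higher in double-KO cells were Cxcr4, the receptor for stromal Cxcl12 (0.89 ± 0.29, adjusted p = 0.034), and Ltb4r1, the receptor for leukotriene B4 (0.82 ± 0.16). Without the block Cxcr4 did not pass (adjusted p = 0.074), and the scan-day term moved it to 0.09 (adjusted p = 0.95).

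Other receptors coupled to G proteins went both ways, with 7 higher (24.1%, against 14.7% of all genes) and 8 lower (27.6%, against 11.0%) of 29. Gpr84, a receptor for medium-chain fatty acids, read 8.73, 8.41, 8.33, 9.02 and 10.52 in double-KO cells, against 12.49, 12.83, 12.50, 12.50 and 11.43 in WT cells (difference -3.35 ± 0.36). Adora2a, the adenosine receptor that restrains inflammation, differed by -2.34 ± 0.47, Hcar2, the niacin and butyrate receptor, by -2.08 ± 0.33, and the proton sensor Gpr65 by -0.59 ± 0.07. Gpr34, a lysophosphatidylserine receptor, went the other way, at 14.80, 14.96, 15.09, 15.04 and 14.03 in double-KO and 13.27, 12.92, 13.33, 12.70 and 11.22 in WT cells (difference 2.10 ± 0.24). S1pr1, the sphingosine phosphate receptor that guides cells out of tissues, was higher by 1.30 ± 0.19, the orphan Gprc5c by 1.15 ± 0.16 and Ffar2, a short-chain fatty acid receptor, by 0.75 ± 0.10. The counts of this list with the scan-day term were 1 higher (Gpr34) and 2 lower (Gpr84 and Gpr65). That term moved Hcar2 to -1.26 (adjusted p = 0.3). Adora2a passed neither without the block (adjusted p = 0.061) nor with the scan-day term (adjusted p = 0.18).

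Of 16 Toll-like receptors and co-receptors 6 were lower (37.5%, against 11.0% of all genes) and 1 higher (6.2%, against 14.7%). Both without the block and with the scan-day term 3 were lower and none higher. Tlr2, the lipopeptide receptor, read 15.02, 14.47, 14.38, 14.58 and 14.20 in double-KO cells, against 15.97, 15.93, 15.42, 15.37 and 15.14 in WT cells (difference -1.04 ± 0.10). Also lower were Tlr3, a sensor of double-stranded RNA (difference -1.27 ± 0.26), Tlr1, a partner of Tlr2 (-1.22 ± 0.16), and Ly96 (MD-2), the LPS-binding partner of Tlr4 (-0.51 ± 0.07). Tlr3 did not pass without the block (adjusted p = 0.051) or with the scan-day term (-0.56, adjusted p = 0.58). Tlr8 was higher (0.75 ± 0.19) and turned sign with the scan-day term (-0.29). Among 25 C-type lectins and Siglecs 5 were lower (20%) and 3 higher (12%). Clec4e (Mincle), the receptor for mycobacterial cord factor, was lower (difference -1.55 ± 0.21), as were Clec4a1 (-1.10 ± 0.12) and Siglec1, the sialoadhesin that interferon is known to raise (-1.65 ± 0.18). Clec7a (dectin-1), the receptor for fungal glucan, was higher, at 16.63, 16.64, 16.87, 16.74 and 16.23 in double-KO and 15.59, 16.15, 16.003, 15.77 and 15.59 in WT cells (difference 0.80 ± 0.12). The dim Cd209a was well above background on 4 double-KO arrays and no WT array, and it was called higher with the hour block and not with the scan-day term (adjusted p = 0.69).

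Of 15 scavenger receptors 4 were higher (26.7%) and 3 lower (20.0%). Without the block 2 were higher and 1 lower, and with the scan-day term 2 and 3. Colec12, a scavenger receptor with a lectin domain, read 14.60, 15.38, 15.24, 15.10 and 15.31 in double-KO cells, against 13.50, 13.12, 13.27, 13.26 and 12.82 in WT cells (difference 1.93 ± 0.19). Stab2, a hyaluronan receptor, was higher by 1.66 ± 0.16, although its other probe stood at -0.39. Besides Marco, Cd5l, a scavenger receptor protein secreted by macrophages, was lower (difference -0.65 ± 0.18), with its widest gap at 16 h (14.88 in double-KO and 16.64 in WT cells). Its adjusted p was 0.38 without the block and 0.18 with the scan-day term. Among 16 Fc and complement receptors 6 were higher (37.5%, against 14.7% of all genes) and 4 lower (25%, against 11.0%). Fcgr4, an activating receptor for IgG, was lower (difference -1.71 ± 0.30), while the low-affinity Fcgr3 was higher by 0.64 ± 0.19 and Fcgrt, which recycles IgG, by 0.87 ± 0.14. Cd93, a receptor of phagocytes and endothelium, was higher by 0.66 ± 0.18. With the scan-day term Fcgr3 turned sign (-0.38).

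Cytokine and growth factor receptors were more often higher. Of 43 measured, 13 were higher (30.2%, against 14.7% of all genes) and 4 lower (9.3%, against 11.0%). The counts were 4 and 1 without the block, and 3 and 1 with the scan-day term. Tgfbr2, a TGF-beta receptor subunit, read 14.97, 15.09, 15.33, 15.47 and 15.71 in double-KO cells, against 14.30, 14.54, 14.35, 14.43 and 14.63 in WT cells (difference 0.86 ± 0.11). Tnfrsf21, a death-domain receptor, was higher by 0.90 ± 0.09 and Tnfrsf11a (RANK), the receptor that starts osteoclast formation, by 0.81 ± 0.12. Lower were Kdr, a VEGF receptor (-1.44 ± 0.26, its other probe 0.12), Il21r (-0.84 ± 0.18) and Bmpr1a, a receptor for bone morphogenetic proteins (-0.85 ± 0.10). Csf1, which encodes M-CSF itself, read 8.66, 8.51, 8.15, 8.31 and 8.69 in double-KO and 9.98, 10.95, 10.90, 11.11 and 11.07 in WT cells, a difference of -2.34 ± 0.23 whose sign was the same at every hour.

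Of 26 integrins and adhesion molecules 10 were higher (38.5%, against 14.7% of all genes) and 5 lower (19.2%, against 11.0%). With the scan-day term none was higher and 3 were lower. Itgb3, the integrin beta-3 chain that osteoclasts use, read 10.41, 9.96, 10.54, 11.24 and 11.58 in double-KO cells, against 8.57, 8.88, 9.46, 9.98 and 9.85 in WT cells (difference 1.40 ± 0.18). Itgb7 was higher by 0.58 ± 0.14 and the adhesion molecule gene Emb by 0.63 ± 0.11. Icam1, the ligand of leukocyte integrins and a known NF-kB target, was lower, at 9.40, 9.74, 9.59, 9.72 and 10.11 in double-KO and 11.71, 11.25, 11.99, 11.24 and 10.93 in WT cells (difference -1.71 ± 0.24), as was the fibronectin receptor chain Itga5 (-1.33 ± 0.16). Of 18 osteoclast and fusion genes 4 were higher (22.2%) and none lower (2 and 0 without the block). Besides Itgb3 and Tnfrsf11a these were the transcription factor gene Nfatc1 (0.98 ± 0.15, its other probe -0.13) and Ctsk, the bone-degrading cathepsin K (0.43 ± 0.13).

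Secreted proteins split by class. Of 14 complement components 10 were lower (71.4%, against 11.0% of all genes) and 1 higher (7.1%, against 14.7%). The counts were 6 and 1 without the block, and 7 and 1 with the scan-day term. C3, on which all complement routes converge, read 12.01, 11.65, 11.84, 12.23 and 14.13 in double-KO cells, against 15.90, 16.19, 15.93, 16.50 and 17.20 in WT cells (difference -3.97 ± 0.32), and lies 0.934 Mb from Ticam1. Cfb, which drives the alternative route (difference -2.89 ± 0.33), and C1qa, which starts the classical route (-1.44 ± 0.16), were lower too. Of 26 matrix proteases, inhibitors and matrix genes 11 were higher (42.3%) and 3 lower (11.5%). The counts were 6 and 2 without the block, and 2 and 1 with the scan-day term. Fn1, fibronectin, was higher by 1.25 ± 0.11, the collagen chain Col1a1 by 1.04 ± 0.17, the neutrophil collagenase Mmp8 by 0.88 ± 0.19, the aggrecan protease Adamts1 by 0.64 ± 0.10 and the inhibitor Timp3 by 0.43 ± 0.06, while Mmp14 was lower.

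Enzymes of prostaglandins and leukotrienes were higher for 7 (35%, against 14.7% of all genes) and lower for 1 (5%, against 11.0%) of 20. The counts were 3 and 0 without the block, and 2 and 1 with the scan-day term. Hpgd, which inactivates prostaglandins, read 16.49, 16.41, 16.75, 16.74 and 16.14 in double-KO cells, against 14.96, 14.15, 14.71, 14.80 and 13.91 in WT cells. The groups stood apart at all hours (difference 2.001 ± 0.15, adjusted p = 3.5e-07). Pla2g7, which breaks down platelet activating factor, was higher by 1.23 ± 0.13, Ephx1, an epoxide hydrolase, by 0.97 ± 0.11 and Cyp4f18, which oxidises leukotriene B4, by 0.60 ± 0.11. Ptgs2, the inducible prostaglandin synthase, was the lower one (-0.78 ± 0.24, adjusted p = 0.029) and was well above background on 1 double-KO array.

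Fatty acid and PPAR target genes were higher for 8 (34.8%, against 14.7% of all genes) and lower for 3 (13%, against 11.0%) of 23. Angptl4, which inhibits lipoprotein lipase, read 12.95, 12.45, 14.93, 16.17 and 15.77 in double-KO cells, against 11.42, 11.67, 13.04, 13.17 and 12.75 in WT cells. Angptl4 was higher in double-KO cells at each hour, and from 4 h it exceeded its earlier level in both groups (difference 2.04 ± 0.31). Without the block its adjusted p was 0.086 and with the scan-day term 0.17. Lpl, lipoprotein lipase itself, was lower (difference -0.51 ± 0.10, its other probe 0.06), as was the fatty acid carrier Fabp5 (-0.48 ± 0.13). Acaa2, an enzyme of beta-oxidation, was higher by 0.61 ± 0.09. With the scan-day term the counts were 1 higher and 1 lower, the beta-oxidation gene Acaa2 and Lpl.

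Cholesterol biosynthesis and MHC class II presentation had called members in 1 direction over all hours. Of 25 measured genes of the cholesterol pathway 10 were lower (40%, against 11.0% of all genes) and none higher, with a median of -0.42. Of 10 measured class II genes 6 were lower (60%) and none higher, with a median of -0.45. Neither list had a called member at 1 and 2 h or at 8 and 16 h taken alone. Without the block 3 cholesterol genes and no class II gene passed, and with the scan-day term 1 and 2. The stretch of 120 bases before the transcription start is shown for the class II genes H2-Aa and H2-Eb1 and the cholesterol genes Mvd, Sc5d and Nsdhl, each of which has 1 start in RefSeq (GRCm38.p6), because called members of both lists were lower over all hours and promoters of both groups are known to carry CCAAT boxes. Capitals mark CCAAT or its reverse complement ATTGG, which are 1 motif read on both strands.
H2-Aa, minus strand of chr17:34287824-34287943: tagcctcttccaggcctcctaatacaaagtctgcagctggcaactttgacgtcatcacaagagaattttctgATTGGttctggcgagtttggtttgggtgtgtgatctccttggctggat
H2-Eb1, plus strand of chr17:34305747-34305866: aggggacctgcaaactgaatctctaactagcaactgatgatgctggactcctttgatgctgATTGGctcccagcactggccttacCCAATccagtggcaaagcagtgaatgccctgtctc
Mvd, minus strand of chr8:122443423-122443542: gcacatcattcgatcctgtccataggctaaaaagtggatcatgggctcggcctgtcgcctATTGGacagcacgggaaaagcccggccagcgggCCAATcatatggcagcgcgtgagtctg
Sc5d, minus strand of chr9:42264301-42264420: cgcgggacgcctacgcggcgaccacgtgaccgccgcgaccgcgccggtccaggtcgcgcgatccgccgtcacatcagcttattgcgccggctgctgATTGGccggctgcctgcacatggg
Nsdhl, plus strand of chrX:72918401-72918520: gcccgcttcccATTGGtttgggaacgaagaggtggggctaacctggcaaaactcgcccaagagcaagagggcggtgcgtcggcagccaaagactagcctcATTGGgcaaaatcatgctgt

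All 5 stretches held the motif. It starts 48 bases before the start in H2-Aa, 59 and 35 in H2-Eb1, 60 and 27 in Mvd, 24 in Sc5d and 109 and 20 in Nsdhl. In such windows 6 of the 8 class II genes with an entry held it (75%), as did 13 of 17 cholesterol genes (76.5%) and 6548 of 27025 genes in the whole table (24.2%). A match is a description of these letters and shows no binding.

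H2-Aa, the class II alpha chain, read 8.69, 8.59, 8.79, 9.33 and 11.08 in double-KO cells, against 10.50, 10.17, 10.19, 10.72 and 11.78 in WT cells (difference -1.38 ± 0.12). Its partner H2-Ab1 read 13.08, 13.20, 13.22, 14.37 and 15.92 in double-KO and 14.69, 14.59, 14.68, 15.05 and 15.76 in WT cells (difference -0.996 ± 0.19), and H2-Eb1 read 12.78, 12.89, 12.67, 13.64 and 15.58 in double-KO and 14.54, 14.42, 14.18, 14.58 and 15.62 in WT cells (difference -1.16 ± 0.19). All 3 chains were lower in double-KO cells from 1 to 8 h, and by 16 h the values of H2-Ab1 and H2-Eb1 had met. Cd74, the invariant chain that guards the class II groove, was lower as well (difference -1.37 ± 0.26), with 1 WT value missing at 2 h. Among the sterol genes Mvd read 10.28, 9.87, 10.13, 9.88 and 10.78 in double-KO and 10.68, 10.42, 10.79, 10.88 and 10.99 in WT cells (difference -0.56 ± 0.10). Sc5d (difference -0.83 ± 0.14), Nsdhl (-0.57 ± 0.11) and Dhcr7, which makes cholesterol from its last precursor (-0.51 ± 0.11), were lower too. The cholesterol list's median difference was widest at 8 h, at -1.15, and -0.03 at 16 h. Of 15 LXR target and efflux genes 3 were higher (20%, against 14.7% of all genes) and 4 lower (26.7%, against 11.0%). The exporter Abcg1 was among the higher ones (0.65 ± 0.15).

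Targets of Atf4, the transcription factor of amino acid shortage, were lower for 11 of 26 (42.3%, against 11.0% of all genes). They were higher for 2 (7.7%, against 14.7%). Without the block 3 were lower, and with the scan-day term 3. Nupr1, a stress-induced nuclear protein, read 11.42, 11.997, 12.25, 11.85 and 11.62 in double-KO cells, against 13.32, 13.88, 14.47, 14.41 and 14.86 in WT cells (difference -2.36 ± 0.21). Chac1, which degrades glutathione (difference -1.68 ± 0.28), and Ddit3, the stress factor CHOP (-1.08 ± 0.12), were lower too. The serine synthesis genes Psph (0.44 ± 0.11) and Psat1 (0.56 ± 0.15) were the higher ones. In arginine, nitric oxide and alternative activation genes 6 of 19 were lower (31.6%) and 2 higher (10.5%), against 1 and 1 without the block and 2 and 0 with the scan-day term. Ass1, which rebuilds arginine from citrulline, read 10.15, 9.97, 9.80, 9.70 and 11.41 in double-KO and 12.43, 12.28, 12.45, 13.42 and 14.25 in WT cells (difference -2.76 ± 0.25). Nos2, the inducible nitric oxide synthase, read 8.02, 8.22, 8.40, 8.59 and 8.73 in double-KO and 8.30, 8.04, 11.35, 12.50 and 11.73 in WT cells (difference -1.99 ± 0.52), so the groups met at 1 and 2 h and stood apart from 4 h. Nos2 did not pass without the block (adjusted p = 0.16) or with the scan-day term (adjusted p = 0.45).

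Among 20 genes of iron and heme handling, 5 were lower (25%, against 11.0% of all genes) and 4 higher (20%, against 14.7%). Slc40a1, ferroportin, the exporter of iron, read 15.17, 15.22, 15.53, 15.96 and 16.12 in double-KO cells, against 13.41, 13.68, 14.73, 13.86 and 13.14 in WT cells (difference 1.84 ± 0.23). The groups did not overlap, and the adjusted p was 6.5e-04 without the block and 0.09 with the scan-day term. The importer Slc11a2 (difference -1.38 ± 0.12) and the siderophore-binding Lcn2 (-2.86 ± 0.73) were lower. Lcn2 did not pass without the block (adjusted p = 0.083), and the scan-day term moved it to -0.31 (adjusted p = 0.92). Cp, ceruloplasmin, which oxidises exported iron, read 7.40, 7.18, 7.12, 7.33 and 7.79 in double-KO cells, well above background on 3 of the 5 arrays, against 9.38, 9.19, 10.20, 11.51 and 12.40 in WT cells (difference -3.17 ± 0.36). Aco1, the iron-sensing regulator, was higher by 0.23 ± 0.07 (adjusted p = 0.019). A fit with the scan-day term left 2 iron genes lower and none higher.

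Energy metabolism lists had medians near 0. Of 29 glycolysis and hypoxia genes 6 were higher (20.7%, against 14.7% of all genes) and 3 lower (10.3%, against 11.0%). Ankrd37, a target of hypoxia-inducible factors, was higher by 1.32 ± 0.18, Ndrg1 by 0.88 ± 0.11, the glucose transporter Slc2a3 by 0.47 ± 0.07 and Bnip3, a mitophagy receptor, by 0.66 ± 0.14, while Vegfa, the vascular growth factor gene (-1.81 ± 0.21), and the glycolytic enzymes Pfkl (-0.57 ± 0.14) and Pkm (-0.46 ± 0.14) were lower. With the scan-day term none of this list was higher and 3 were lower. Of 32 oxidative phosphorylation genes 4 were higher and 4 lower, of 32 lysosomal genes likewise 4 and 4, and of 29 cytosolic ribosomal protein genes 1 was higher and 2 lower, near or under the shares of all genes. Glb1, lysosomal beta-galactosidase, was lower (difference -1.12 ± 0.08) and lies 4.86 Mb from Myd88. Of 26 NRF2 and antioxidant genes 3 were higher (11.5%) and 2 lower (7.7%) over all hours. The peroxidase Prdx6 (0.66 ± 0.16) and the glutathione transferase Gstm1 (0.60 ± 0.12, its other probe near 0) were higher. The superoxide dismutase Sod2 (-0.75 ± 0.19) and Gstp1 (-0.40 ± 0.11) were lower. Gstm1 and Sod2 each lack the WT value at 2 h. Of 19 unfolded protein response genes 1 was higher (5.3%) and 2 lower (10.5%).

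Proliferation lists also had medians near 0. Of 38 mitosis genes 3 were higher and none lower over all hours (median 0.04), and of 35 replication genes 2 were higher and 5 lower (median 0.01), both near or under the shares of all genes. Mcm6, a subunit of the replicative helicase, stood out at 13.85, 13.82, 13.75, 13.37 and 14.32 in double-KO cells, against 15.23, 15.46, 15.14, 15.40 and 15.56 in WT cells. It was lower at all 5 hours (difference -1.54 ± 0.12, adjusted p = 7.7e-07). Mcm10 (difference -0.65 ± 0.15) and the replication factor gene Gins1 (-0.44 ± 0.11) were lower too, while Cdt1, which loads the helicase, was higher by 0.52 ± 0.09. Cdca3, a mitotic regulator, read 15.31, 15.64, 14.65, 13.37 and 10.85 in double-KO and 15.03, 14.74, 14.27, 13.19 and 10.45 in WT cells, and declined over the hours of serum-free culture in both groups. Its difference was 0.43 ± 0.14 (adjusted p = 0.037), with Mad2l1 at 0.35 ± 0.12 and Cenpf at 0.31 ± 0.08, and none of the 3 passed without the block. Of 23 cell cycle inhibitors and p53 targets 5 were higher (21.7%, against 14.7% of all genes) and 5 lower (21.7%, against 11.0%). Cdkn2a, which encodes the inhibitors p16 and p19Arf, was higher, at 9.87, 9.40, 9.05, 8.85 and 10.11 in double-KO and 8.10, 8.59, 8.22, 7.98 and 8.04 in WT cells (difference 1.27 ± 0.21), as were Rbl2 (1.06 ± 0.15) and Btg1 (0.41 ± 0.08). Cdkn1a (p21, difference -1.14 ± 0.15) and Gadd45b (-1.33 ± 0.22) were lower.

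Inflammatory genes were lower, as background to the above. Of 55 interferon-stimulated genes 50 were lower (90.9%, against 11.0% of all genes) and none higher. Of 37 cytokines and chemokines 19 were lower (51.4%) and 1 higher. Of 29 rapidly induced genes and NF-kB inhibitors 17 were lower (58.6%) and 1 higher. Without the block 33, 17 and 12 were lower, and with the scan-day term 22, 7 and 7. Usp18, which restrains interferon signalling (difference -1.83 ± 0.12), and the nucleic acid sensors Ddx58 (RIG-I, -1.30 ± 0.09) and Zbp1 (-1.97 ± 0.13) were among them. Tnf read 9.06, 8.58, 8.77, 9.05 and 9.92 in double-KO cells, against 14.30, 14.61, 14.16, 13.36 and 12.10 in WT cells (difference -4.63 ± 0.43). Il6 and Il1a were well above background on no double-KO array, and were at least 2.46-fold and at least 4.35-fold lower.

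The scan-day term also moved other values by more than 1.5 times and ended their calls. Among these, it gave 0.16 for Cd93, 0.07 for Ctsk, 0.37 for Col1a1, 0.45 for Gprc5c and 0.96 for Pam. It gave 0.20 for Psat1, 0.24 for Bnip3, -0.27 for Ptgs2, 0.52 for Rbl2 and -0.72 for Ly6g. All these genes kept the direction they had over all hours. Il6 and Il1a were not called in that fit either (adjusted p = 0.83 and 0.73). Other genes above passed neither without the block nor with the scan-day term. Among them were Chac1, Psph, Psat1, Mcm10, Gins1, Cdt1, Kdr, Il21r and Tnfrsf11a. Emb, Cyp4f18, Abcg1, Nsdhl, Slc2a3, Gstp1 and Aco1 were among them too. The part of scan day in these differences was not tested.

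Whether the differences were there from the start or grew in culture was asked next, by fitting 1 and 2 h and 8 and 16 h apart. At 1 and 2 h 717 of 21959 genes passed (3.27%), 341 higher (1.55%) and 376 lower (1.71%). At 8 and 16 h 1560 of 21958 passed (7.10%), 717 higher (3.27%) and 843 lower (3.84%). The median absolute difference over all genes was 0.263, 0.239, 0.224, 0.244 and 0.265 at 1, 2, 4, 8 and 16 h. That median includes uncalled genes, so it does not show whether the differences of called genes grew. Among genes called higher over all hours the median was 0.519, 0.354, 0.485, 0.516 and 0.488 at these hours. Among those called lower it was -0.45, -0.509, -0.505, -0.621 and -0.573. Without the 1 h WT array the early count was 325, and without the 16 h WT array the late count was 544, so single arrays move these counts. Of the 717 early genes 683 had the same sign late (95.3%) and 443 passed there too, which is 61.8% of the early and 28.4% of the late genes. Of the 1560 late genes 1424 had the same sign early (91.3%, against 66.9% of all genes compared between periods), and 836 were at least 0.5 times as large early (53.6%). Both periods enter 1 fit with a shared estimate of spread and no sample in common. Over all genes, called or not, 539, 418, 350, 440 and 864 were more than 2-fold higher at 1, 2, 4, 8 and 16 h. More than 2-fold lower were 943, 506, 503, 743 and 780. Of the 256 genes called and more than 2-fold higher over all hours, 190, 139, 197, 223 and 224 exceeded 2-fold at these hours. Of the 449 more than 2-fold lower, 323, 331, 347, 418 and 395 did. These genes were chosen by their mean over the same hours, which favours high counts at single hours. The choice did not fix how the counts spread over the hours, and that spread was not tested.

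**Figure D3:**
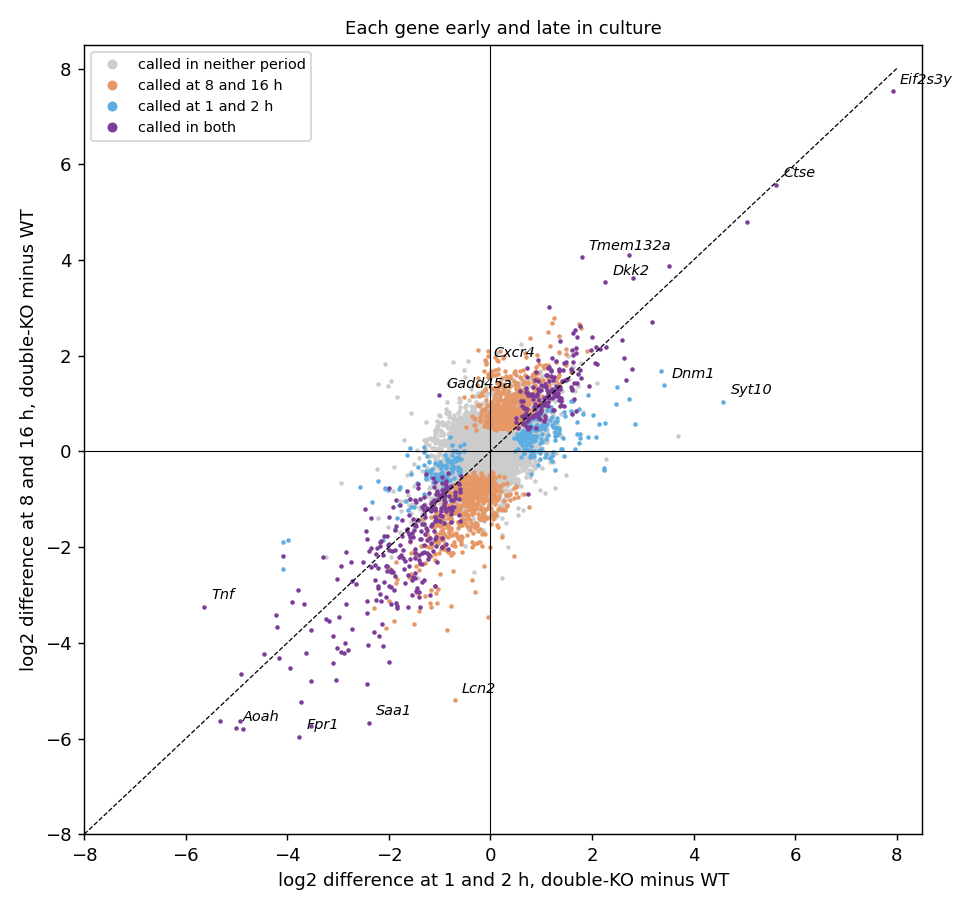
Difference of each gene between double-KO and WT cells at 1 and 2 h (horizontal axis) and at 8 and 16 h (vertical axis), in log2 units, coloured by the period in which it passed. Ctse lies on the dashed line of equality, at 5.62 and 5.58, while Lcn2, at -0.71 and -5.20, and Syt10, at 4.59 and 1.04, lie off it.

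A direct test of the change with time called few genes. By limma the slope over log2 hours differed between double-KO and WT cells for 6 of 21960 genes (0.0273%, with 2410 at an unadjusted p under 0.05). Of the 6, 3 were up and 3 down (0.0137% each). None passed when limma set the difference at 8 and 16 h against that at 1 and 2 h (1668 at an unadjusted p under 0.05). Both unadjusted counts exceed a share of 0.05 of the genes. With 1 array per genotype and hour, the few calls do not show that the differences stayed constant. Cxcr4 read 12.68, 13.09, 13.36, 13.36 and 13.34 in double-KO cells, against 13.39, 12.56, 12.37, 11.73 and 11.33 in WT cells, so it declined in WT culture and not in double-KO culture (slope difference 0.65 ± 0.08 per doubling of time, adjusted p = 0.016). Gadd45a, a stress-induced growth arrest gene, read 11.92, 12.01, 11.65, 11.91 and 12.11 in double-KO and 12.99, 12.97, 11.78, 11.09 and 10.56 in WT cells. It was lower at 1 and 2 h and higher at 8 and 16 h in double-KO cells (slope difference 0.70 ± 0.11, adjusted p = 0.035). The deacetylase gene Hdac4 had a higher slope in double-KO cells as well (difference 0.37 ± 0.05), while Med12l (-0.51 ± 0.08), the cytochrome oxidase subunit gene Cox6a2 (-0.49 ± 0.07) and Selenow, a selenoprotein (-0.48 ± 0.07), had lower ones. In each of these 4 the levels of the groups ran in opposite directions with time. No gene passed the slope test without the 1 h array of either genotype or without the 8 h WT array (1523, 2514 and 2545 at an unadjusted p under 0.05).

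Some genes were wider apart early than late, without passing the slope test. Syt10, a synaptotagmin of vesicle fusion, read 13.74, 14.92, 14.45, 14.34 and 14.83 in double-KO cells, against 8.88, 10.61, 13.39, 13.61 and 13.48 in WT cells. Dnm1, a dynamin that cuts vesicles from membranes, read 11.52, 13.42, 12.90, 12.73 and 13.23 in double-KO and 8.58, 9.50, 11.63, 11.95 and 11.25 in WT cells, and Teddm2 read 12.01, 13.24, 12.72, 12.99 and 13.50 in double-KO and 9.60, 9.97, 12.98, 12.83 and 12.53 in WT cells. In all 3 the WT values at 1 and 2 h were the low ones, and all 3 passed at 1 and 2 h (differences 4.59, 3.43 and 2.84). The opposite form was seen in Lcn2, at 9.21, 8.66, 8.75, 9.33 and 9.34 in double-KO and 9.50, 9.78, 11.27, 14.28 and 14.78 in WT cells (slope adjusted p = 0.073), and in Cp, whose WT level climbed by more than its double-KO level.

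**Figure D4:**
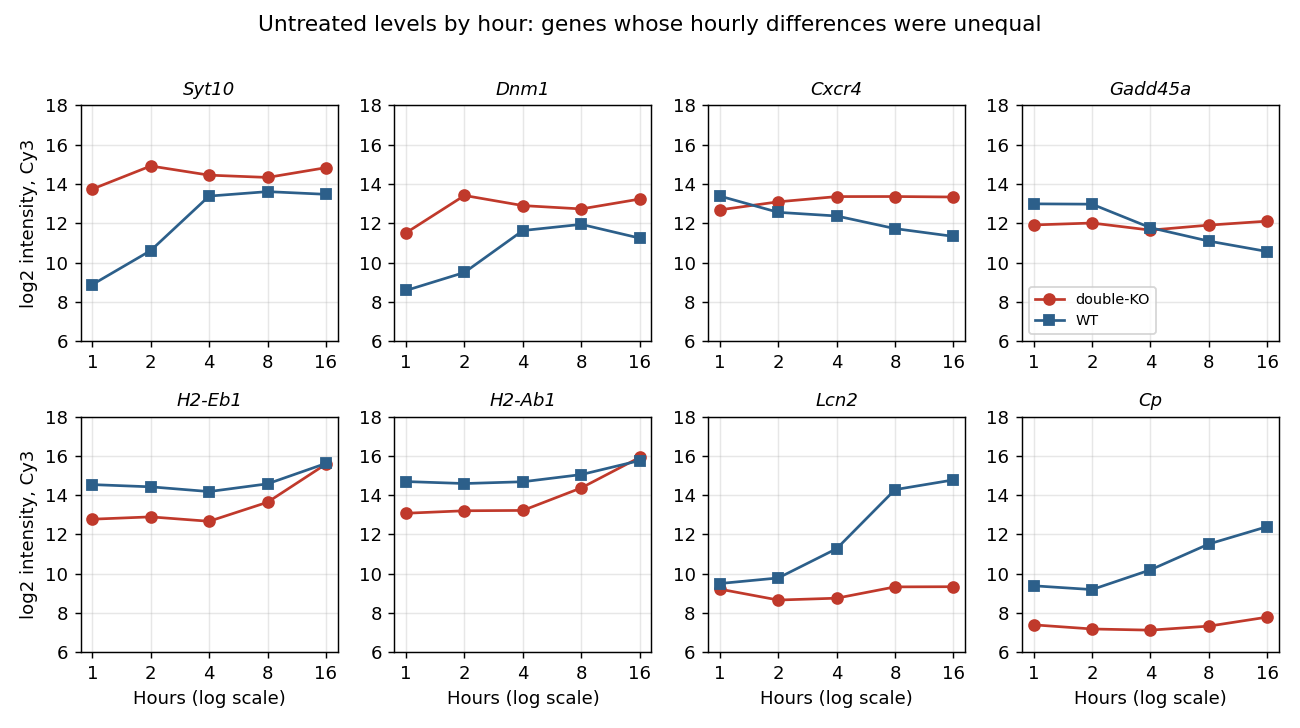
Untreated log2 Cy3 intensity (vertical axis) at each hour (horizontal axis, log scale) of 8 genes whose hourly differences were unequal, with 1 array per point. Syt10 and Dnm1 differ most at 1 and 2 h, Cxcr4 and Gadd45a cross, the class II chains H2-Eb1 and H2-Ab1 meet at 16 h, and Lcn2 and Cp move further apart after 2 h. Of the 8 only Cxcr4 and Gadd45a passed the slope test.

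By list, the inflammatory medians were negative from 1 h, while those of Atf4 targets and NRF2 genes were near 0 then. Over all genes 1.71% were lower at 1 and 2 h and 3.84% at 8 and 16 h, and 1.55% and 3.27% were higher. A larger late count in a list is thus not by itself a change in the list. The median of interferon-stimulated genes was -1.46, -1.27, -1.10, -1.76 and -1.83 at 1, 2, 4, 8 and 16 h, and 33 of its 55 genes were lower at 1 and 2 h. Class II presentation was lowest at 1 h (-1.35, -0.51, -0.48, -0.34 and -0.16). Atf4 targets had a median near 0 at 1 h and a negative one from 2 h (0.02, -0.30, -0.86, -0.68 and -0.54), with 1 of 26 lower at 1 and 2 h and 6 at 8 and 16 h. NRF2 and antioxidant genes had a median of -0.07, -0.22, -0.13, 0.07 and 0.67, with 4 of 26 higher at 8 and 16 h and none at 1 and 2 h. Mitosis genes had a median of 0.21, 0.19, 0.20, -0.46 and -0.02, so it was positive in the first 4 h and negative at 8 h. Each hourly median rests on 1 array per genotype, and no list's change with time was tested.

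**Figure D5:**
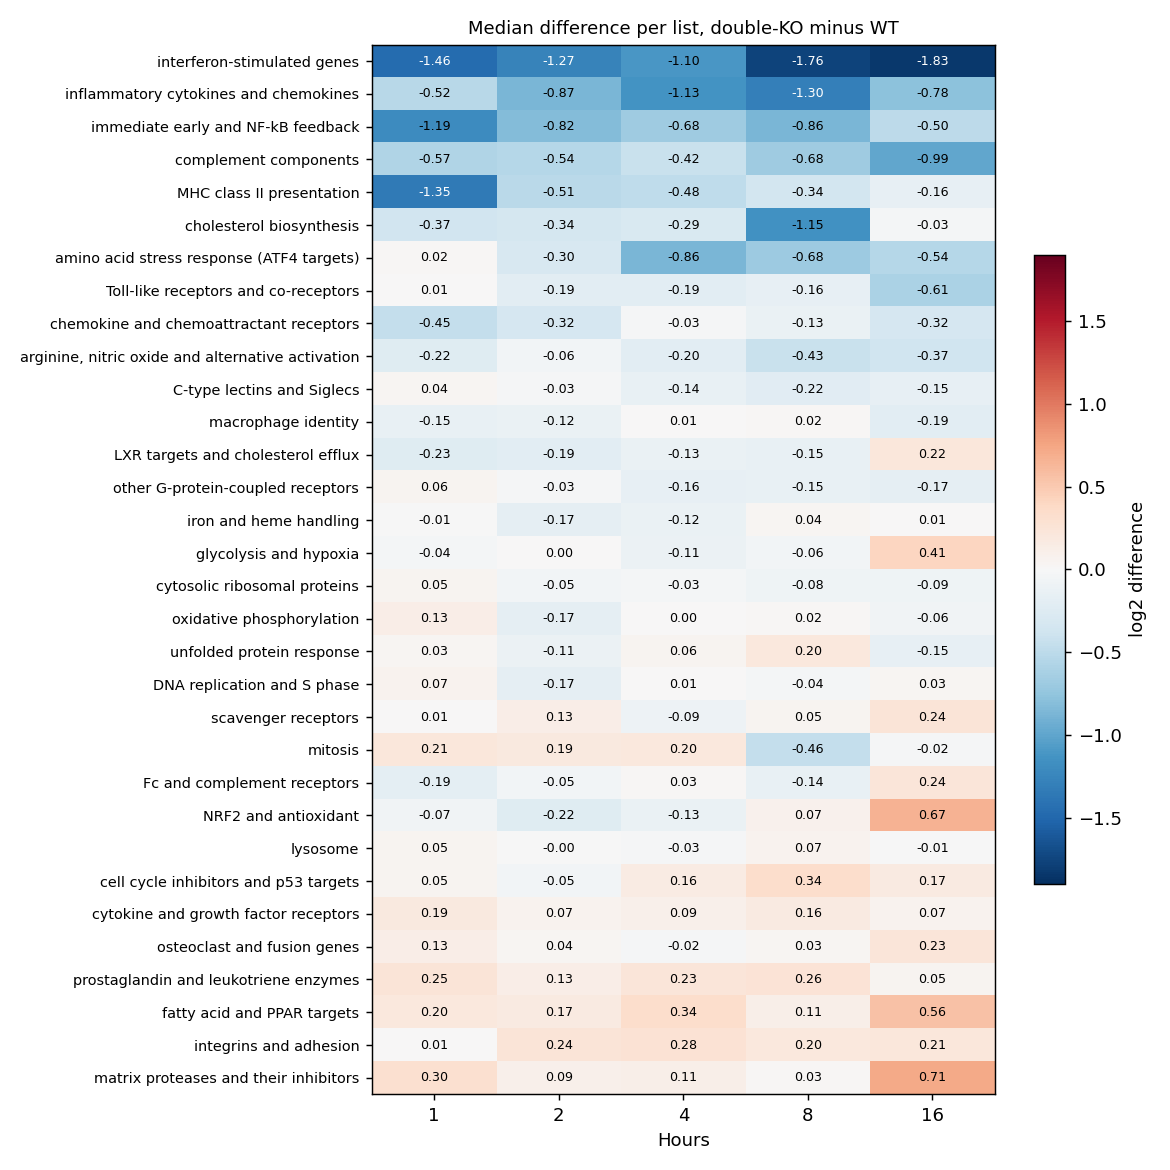
Median log2 difference between double-KO and WT cells (colour and printed number) per list (rows) at each hour (columns), with 1 array per genotype and hour. Interferon-stimulated genes are lowest at all hours but 4 h, where cytokines and chemokines read -1.13 and interferon-stimulated genes -1.10, and matrix proteases (0.71) and NRF2 genes (0.67) are the most positive at 16 h.

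The markers of other cells are counted here against the 14.7% higher and 11.0% lower of all genes. Without the block 1 T cell marker was called (lower), and no marker of B cells, NK cells or the mast cell list; with the scan-day term 1 T cell marker was called (higher) and again none of those others. With hour as a block, for T cells 3 of 9 markers were higher (33.3%) and 1 lower (11.1%). The sum of linear intensities ranged from 33213 to 69002 on double-KO arrays and from 22876 to 35651 on WT arrays. Cd2, an adhesion molecule of lymphocytes, read 11.09, 11.11, 10.33, 8.80 and 8.24 in double-KO and 8.95, 9.38, 8.61, 7.35 and 6.95 in WT cells (difference 1.67 ± 0.13). The defining Cd3e differed by -0.01 and was not called. Cd3e does not stand for the list, and the levels of the other called T cell markers are not reported here. For neutrophils and their precursors 4 of 17 were higher and 3 lower (sums 115099 to 151430 on double-KO and 110746 to 153802 on WT arrays), with Camp (0.71 ± 0.10) and the dim receptor gene Cxcr2 (0.25 ± 0.08) higher and Ly6g lower (-2.59 ± 0.46). The sums that follow are for double-KO and then for WT arrays. For B cells 1 of 8 was higher and 1 lower (Ms4a1 0.72 ± 0.19, Cd79b -0.51 ± 0.12; sums 2525 to 3055 and 2767 to 3076), for NK cells 1 and 1 of 7 (1407 to 1481 and 1549 to 1948), and for mast cells, basophils and eosinophils 2 and 2 of 8 (2529 to 16953 and 2843 to 6620). In that last list Tpsb2, a mast cell tryptase, read 9.84, 10.75, 12.24, 13.90 and 13.23 in double-KO and 10.48, 10.19, 11.38, 12.14 and 10.99 in WT cells (difference 0.95 ± 0.29). Dendritic cell markers were higher for 3, among them the tryptophan enzyme gene Kmo (0.41 ± 0.13), and lower for 2 of 10 (131868 to 176936 and 152998 to 172756), erythroid and megakaryocyte markers for 1 and 1 of 6 (18445 to 29307 and 19825 to 52317), and stem and progenitor markers for 2 and 2 of 10 (6668 to 18505 and 21145 to 44397), with Sox4 higher (1.87 ± 0.25) and Ly6a lower. Of 12 fibroblast markers 4 were higher and 2 lower (2474 to 3234 and 2636 to 3371), with Col1a1 higher, Postn higher and well above background on 3 double-KO arrays and no WT array, and the defining Lum and Dcn not well above background on any of the 10 arrays. The part of other cells in the differences above was not tested.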

How the data were processed

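Of 20 two-colour Agilent mouse arrays 19 held untreated RNA in Cy3, from which it was read, and the 5 double-KO and 5 WT arrays were compared. Per the file headers, the deposited values are spot intensities from Agilent Feature Extraction 10.10.1.1, as mean signal, median local background, processed signal and flags, with probe coordinates on mm9. The authors' later normalization is not given in the sources used here. From the deposited intensities, the background was corrected by normexp (offset 50), control and outlier spots were dropped, and arrays were normalized by loess within and Aquantile between arrays. Of 39429 probes 28304 were kept (well above background in either channel on at least 3 of the 20 arrays). The brightest probe by the mean of both channels stood for each of 21963 genes. Names came by accession for 27234 probes, symbol for 3576, synonym for 565 and the file itself for 8054.

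The limma fit (3.58.1, R 4.3.3) used 19 arrays of 4 genotypes, without the dye-swapped one, with Benjamini-Hochberg adjustment over all genes and a threshold of 0.05, and was tested on simulated data. Hour is a block because the labels pair arrays by hour. Same-hour deviations of double-KO and WT arrays correlated at 0.36 to 0.52, while the 1 h pair's highest other-hour value was 0.38. Slide and scan day, probe filters, normalizations and left-out arrays were tried as alternatives. The comparison, the gene lists and the rule for named genes were chosen with earlier results of these data known. The rule took the 12 largest called differences each way over all hours outside the inflammatory lists, the 6 largest bounds each way, up to 4 called members each way per functional list, the 6 largest early differences and the called slopes, the 3 clearest of each inflammatory list, fixed identity genes, targeted and sex-linked genes and called markers of other cells; some of these are not reported here. The 12 largest and the early differences required a matched name and the same sign at each hour used. They and the slopes also required a signal well above background on at least 3 arrays of each genotype. Cd3e, Lum and Dcn are given beside their lists as defining markers. Promoters are RefSeq's (GRCm38.p6). The number of arrays limits the precision.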

Additional observations from a re-analysis of the deposited data

Results flagged for a closer look

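The named genes in each genotype gave 342 sets of 5 arrays, of which those with a missing value were not examined. In 14 of the sets 1 array lay so far from the other 4 that the gap over the range passed Dixon's critical value of 0.71. Chance gives about 1 such set in 20, and the hour of the array is part of the design, so a level that changes in the last hours meets the criterion too.

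The 16 h array was the one apart in 8 of these sets. In double-KO cells at 16 h, C3 read 14.13 (the other hours 11.65 to 12.23), Marco 9.43 (8.15 to 8.41), Ass1 11.41 (9.70 to 10.15), Ankrd37 13.39 (11.55 to 11.95) and Gm5067 11.30 (10.34 to 10.49), while Gpr34 read 14.03 (14.80 to 15.09). In WT cells at 16 h, H2-Eb1 read 15.62 (14.18 to 14.58) and Gpr84 11.43 (12.49 to 12.83).

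At other hours, double-KO cells had Il1a at 6.44 at 4 h (6.66 to 6.70), Cd93 at 16.39 at 2 h (16.63 to 16.69) and Itga5 at 8.65 at 8 h (9.08 to 9.12). WT cells had Csf1 at 9.98 at 1 h (10.90 to 11.11), Rbl2 at 10.87 at 1 h (9.67 to 9.78) and Fcgrt at 12.24 at 2 h (12.89 to 13.01).

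The change with time differed between genotypes by limma's test of the slopes for 6 genes. The slope per doubling of time, double-KO minus WT, was 0.65 for Cxcr4, 0.70 for Gadd45a, 0.37 for Hdac4, -0.51 for Med12l, -0.49 for Cox6a2 and -0.48 for Selenow.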

How the results depend on the processing

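The counts over all hours stayed within 1.5 times of 5634 under another normalization, background correction, probe filter or probe rule, and with only the 10 arrays in the fit (3970). They moved to 1946 with slide as a random block, 1463 with slide as a fixed block, 1818 with scan day as a fixed block and 2135 with no replicate block, which is the fit that drops the pairing by hour. Leaving out 1 array gave 3990 to 5723. At 1 and 2 h only the 10 arrays gave 456 genes, and leaving out 1 array gave 325 to 717, with 325 without the 1 h WT array, 364 without the 2 h WT array and 421 without the 2 h double-KO array. At 8 and 16 h leaving out 1 array gave 544 to 1654, with 544 without the 16 h WT array, 686 without the 8 h double-KO array and 862 without the 16 h double-KO array. Where a period keeps 1 array of a genotype, that array is assumed to vary like the others. The slope test called 10 genes with Cy3 normalized alone, 2 with scan day as a fixed block, and 0 by limma with the processed signal, with only the 10 arrays, with slide as a fixed block and as the difference of late and early hours (1792, 2300, 1780 and 1668 at an unadjusted p under 0.05). Leaving out 1 array gave 0 to 8. Slide and scan day as fixed blocks could not be fitted at 1 and 2 h or at 8 and 16 h, since no chain of arrays then links the WT and double-KO slides.

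Of the 161 genes named and called over all hours, 39 passed under every alternative tried, 160 with Cy3 alone, 155 with the processed signal, 143 with only the 10 arrays, 117 of 158 with slide as a random block, 50 with slide as a fixed block, 74 with scan day as a fixed block, 107 with no replicate block and 146 to 155 without 1 array. With slide as a fixed block the sign turned for Il1a (0.76), Il6 (0.32), Sc5d (0.44), Ptgs2 (0.22), Nos2 (0.19), Itgam (-0.17), Mertk (-0.12), Cebpa (-1.32), Cxcr4 (-0.29), Tlr8 (-1.1), Fcgr3 (-0.14), Abcg1 (-0.68), Rbl2 (-0.39) and Ndrg1 (-0.094). With scan day it turned for Itgam (-0.028), Mertk (-0.081), Cebpa (-0.199), Tlr8 (-0.29) and Fcgr3 (-0.38). None of these 19 values passed, and the cause was not tested. Dim genes are limited by signal over background, since 57.7% to 65.8% of Cy3 spots on double-KO arrays and 60.2% to 69.6% on WT arrays were well above it.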
